A study of Mus musculus with 24 samples.

Results

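Autophagy delivers cytoplasm and damaged organelles to the lysosome. A kinase complex built on ULK1 or ULK2 starts the process, a lipid kinase complex with Beclin 1 and ATG14 marks the site, and ATG9 vesicles, ATG2 and WIPI proteins build the membrane. Conjugation enzymes then attach proteins of the ATG8 family (LC3 and GABARAP) to that membrane, where they bind cargo receptors such as p62, and in mitophagy the cargo is the mitochondrion, marked by PINK1 or by receptors such as BNIP3. The 37 genes described here were taken by name as machinery, receptor and mitophagy genes, a rule that uses no measured value, though it was set with earlier results of these data known. All 37 were found among the 28328 genes of the table and all 37 passed the filter on low values.

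LLC1 is a cell line from the mouse Lewis lung carcinoma. CP cells received cisplatin at 2.5 µM and pemetrexed at 2.5 µM, a chemotherapy pair that crosslinks DNA and blocks folate-dependent nucleotide synthesis. T cells, which are LLC1 cells and not lymphocytes, received trametinib, a MEK inhibitor, at 10 nM, TCP cells received all 3 drugs at these doses, and NT cells received 0.1% DMSO alone. Poly(A) RNA was sequenced after 24 h and 6 h in 3 libraries per group, 24 in all. All groups are of 1 cell line in culture, and no label states that the 3 libraries of a group came from separate cultures, so that each p-value measures the spread between these libraries only.

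Levels are in TPM, the share of a library's transcripts after scaling for their length, summed over the transcripts of a gene. The TPM of every library has the same sum by construction, so that read depth is not known and a value is a share of the library's RNA. In such bulk RNA, fewer cells of a type and less RNA per cell cannot be told apart. Changes are differences of mean log2(TPM + 1), given ± SE with n = 3 libraries a group, and a change is called where its limma adjusted p is under 0.05 over all 12581 genes tested. The drugs' known targets moved with the labels: Dusp6, a phosphatase induced by ERK, changed by -1.27 in T cells and -1.25 in TCP cells against NT cells at 24 h, and Mdm2, a p53 target, by 2.08 in CP cells. Markers of other cell types were low: 14 of the 20 markers looked for, among them Ptprc, Adgre1 and Epcam, stayed under 1 TPM in all 24 libraries, and Adgre1 was listed at 0 in each. The summed TPM of 4 macrophage markers was 33.0 to 39.3 in CP cells at 24 h, against 10.3 to 14.7 in NT cells, almost all of it from Cd68, which encodes a lysosomal membrane protein. The summed TPM of 3 endothelial markers was 7.09 to 12.8 in CP cells, against 2.61 to 3.61 in NT cells at 24 h. Nearly all of it came from Pecam1, as Cdh5 and Kdr stayed under 1 TPM in all 24 libraries. Over 3 fibroblast markers it was 25.9 to 26.1 in T cells and 39.9 to 43.8 in TCP cells, against 5.42 to 6.08 in NT cells at 24 h, and 7.36 to 10.2 in T and 9.45 to 12.4 in TCP cells, against 2.33 to 3.02 in NT cells at 6 h. The fibroblast markers reached unlike levels: over all libraries Dcn rose to at most 28.7 TPM, Pdgfra to 9.00 and Col1a1 to 6.89. Col1a1 was under 1 TPM in 15 libraries and Dcn in 6. What part these marker levels have in the results below was not tested.

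Except in CP cells at 6 h, most autophagy genes were called in each comparison with NT cells, as were most of all genes tested. More members rose than fell in each comparison. At 24 h, 19 members rose in CP cells and 8 fell, where 34.9% and 24.3% of all genes tested were called higher and lower. In T cells 17 rose and 8 fell, against 32.4% and 26.3% of all genes, and in TCP cells 22 rose and 6 fell, against 39.6% and 23.8%. In either direction the test called 59.2%, 58.7% and 63.4% of all genes in CP, T and TCP cells. The median log2 change of the 37 genes was 0.17 in CP, 0.17 in T and 0.31 in TCP cells, beside 0.057, 0.036 and 0.10 over all genes. At 6 h fewer members moved in CP cells than in T or TCP cells. There 8 members rose and 4 fell in CP cells, where 11.3% and 13.5% of all genes were called. In T cells 23 rose and 4 fell, against 35.9% and 18.9%, and in TCP cells 27 rose and 4 fell, against 38.6% and 19.8%. In either direction these were 24.8%, 54.8% and 58.4% of all genes. The medians at 6 h were 0.049 in CP, 0.38 in T and 0.41 in TCP cells, beside 0.0095, 0.10 and 0.11 over all genes. After median ratio rescaling, which moved the median of all genes down by 0.11 in TCP cells at both times, the TCP counts became 17 higher and 11 lower at 24 h and 23 higher and 7 lower at 6 h. At 24 h the CP counts became 18 and 10 and the T counts 16 and 11. At 6 h they were 8 and 4 in CP and 22 and 4 in T cells. Shares of all genes after rescaling were not computed, here or below, so the rescaled counts have no such share beside them.

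**Figure D1:**
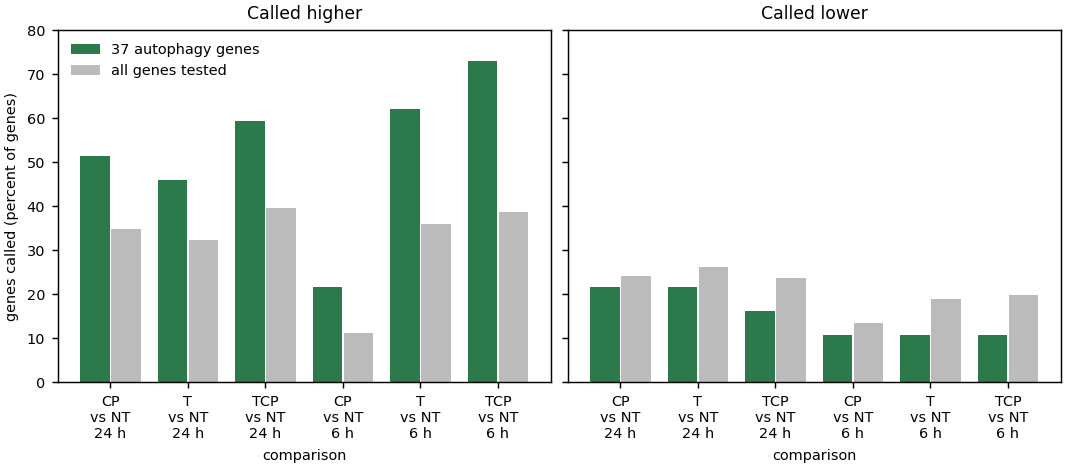
Percent of the 37 autophagy genes and of all 12581 genes tested that were called higher (left) or lower (right) in CP, T and TCP cells against NT cells, with 24 h before 6 h on each axis. Without rescaling, the share of autophagy genes called higher stands above that of all genes in each of the 6 comparisons, and the share called lower stands below it.

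Over these 6 comparisons, Atg14 was called higher in all 6. So was Atg9a, whose call in CP cells at 6 h ended without any 1 of 5 libraries, all but CP replicate 3 (0.20 to 0.28, adjusted p 0.0748 to 0.159). In all, 19 members were called only higher, 6 only lower (Atg2b, Atg3, Atg4b, Atg4c, Atg7 and Atg16l1) and 11 in both directions, while Atg4d was called in none. The same split was not made over all genes tested, so these counts only describe the members and set them apart from no other genes. At 24 h all 5 ATG8 family genes rose in CP and in TCP cells, where 34.9% and 39.6% of all genes were called higher. However, the Gabarapl2 call in CP cells did not hold on protein-coding transcripts alone, nor the Gabarapl1 call in TCP cells after rescaling. At 6 h all 5 cargo receptor genes and all 4 mitophagy genes rose in T and in TCP cells. There 35.9% and 38.6% of all genes were called higher. The median change of the 10 conjugation genes lay between -0.097 and 0.11 in each of the 6 comparisons.

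**Figure D2:**
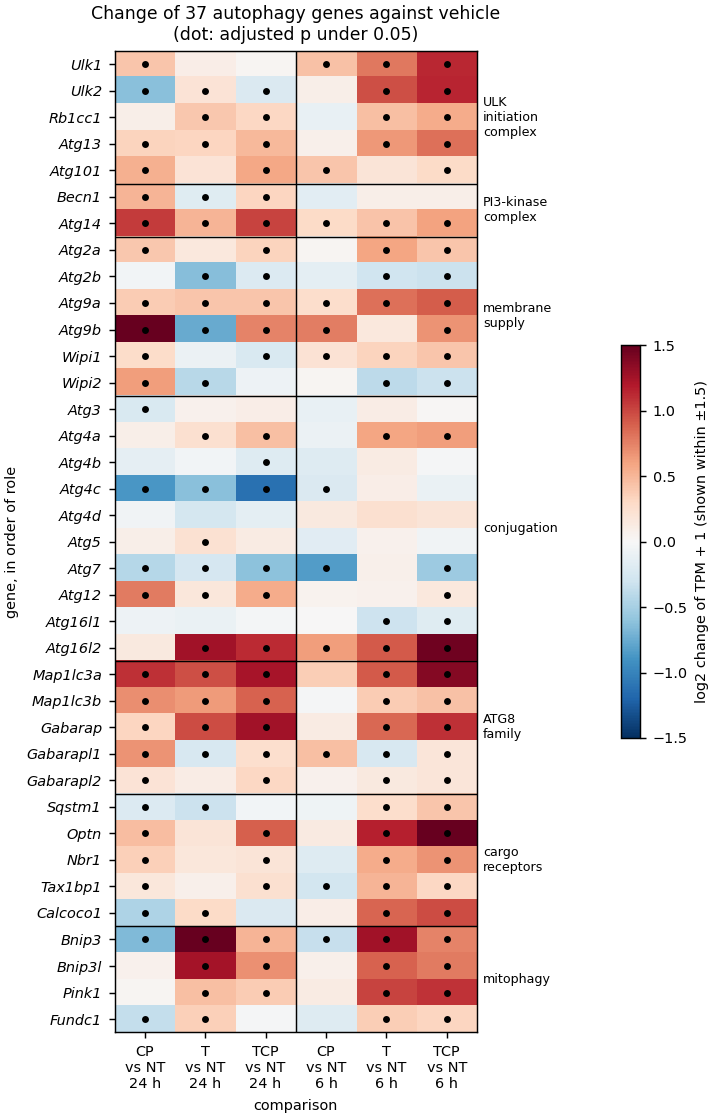
Log2 change of TPM + 1 for the 37 genes (rows, by role) in CP, T and TCP cells against NT cells (columns, 24 h left, 6 h right), n = 3 libraries a group, with colours held within ±1.5 and a dot where the adjusted p is under 0.05. The ATG8 family is red with dots in the CP and TCP columns at 24 h, the cargo receptors and mitophagy genes in the T and TCP columns at 6 h, and Atg9b at 24 h lies at 3.43 in CP cells and -0.75 in T cells.

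Against NT cells at 6 h, 4 of the 5 initiation genes rose in T and 5 of the 5 in TCP cells. There 35.9% and 38.6% of all genes were called higher. For Ulk1, Ulk2 and Atg13 the change in T and in TCP cells was smaller at 24 h than at 6 h. The test of that difference called each, though that of Atg13 in T cells did not hold after rescaling. The NT mean also rose from 6 h to 24 h: Ulk1 4.22 to 5.69 TPM, Ulk2 7.66 to 13.7, Atg13 15.1 to 24.5. The T mean went from 8.045 to 6.17 TPM for Ulk1, 15.95 to 15.96 for Ulk2 and 24.1 to 30.9 for Atg13. In TCP cells these means went from 10.5 to 5.81, 18.2 to 11.7 and 27.5 to 34.6. The Atg101 call in TCP cells at 6 h (0.29, adjusted p = 0.0499) ended without NT replicate 1 or 2 or TCP replicate 2 or 3 (0.24 to 0.28, adjusted p 0.105 to 0.162). Ulk1 (chr5:110784488-110810097, minus strand; all positions are on GRCm38 by GENCODE M21) encodes the kinase that starts autophagy. Its TPM at 24 h was 8.56, 7.25 and 7.97 in CP, 6.09, 6.03 and 6.39 in T and 5.26, 6.13 and 6.05 in TCP cells, against 5.59, 5.16 and 6.33 in NT cells. At 6 h it was 6.18, 6.05 and 5.93 in CP, 8.38, 8.31 and 7.44 in T and 9.50, 10.1 and 11.9 in TCP cells, against 3.93, 4.38 and 4.35 in NT cells. All 9 treated libraries lay above NT at 6 h, and at 24 h all 3 CP libraries did while the T and TCP libraries overlapped NT. The change at 6 h was 1.13 ± 0.082 in TCP, 0.79 ± 0.082 in T and 0.43 ± 0.082 in CP cells, and at 24 h it was 0.42 ± 0.082 in CP cells, 0.10 in T cells (adjusted p = 0.294) and 0.027 in TCP cells (adjusted p = 0.793).

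Ulk2 (chr11:61775649-61855073, minus strand), its paralogue, had 8.47, 8.74 and 8.45 TPM in CP, 15.7, 15.2 and 17.0 in T and 11.8, 12.5 and 10.8 in TCP cells at 24 h, against 13.9, 13.9 and 13.3 in NT cells. At 6 h it had 8.52, 7.80 and 8.38 TPM in CP, 15.6, 14.7 and 17.6 in T and 19.1, 16.5 and 19.1 in TCP cells, against 7.25, 7.67 and 8.07 in NT cells. The T and TCP libraries were above NT at 6 h with no overlap, at 0.97 ± 0.07 and 1.15 ± 0.07. At 24 h CP was lower than NT, at -0.62 ± 0.07, while Ulk1 was higher there. The CP mean of Ulk2 was 8.235 TPM at 6 h and 8.56 at 24 h, and the NT mean 7.66 and 13.7. Calls for Ulk2 in T cells (0.21) and TCP cells (-0.22) at 24 h were weak. The first ended without NT replicate 3 (0.18, adjusted p = 0.0615) or T replicate 3 (0.16, 0.0882). The second ended without TCP replicate 3 (-0.16, adjusted p = 0.0711) and was 0.082 on protein-coding transcripts alone.

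The other 3 initiation genes encode partners of the kinase. Atg13 rose in 5 of the 6 comparisons, by 0.83 ± 0.069 in TCP and 0.65 ± 0.069 in T cells at 6 h and by 0.34 ± 0.069, 0.32 ± 0.069 and 0.48 ± 0.069 in CP, T and TCP cells at 24 h. Rb1cc1, the scaffold also called FIP200, rose in T cells by 0.40 ± 0.10 at 24 h and 0.45 ± 0.10 at 6 h. Atg101 rose by 0.53 ± 0.12 in CP and 0.59 ± 0.12 in TCP cells at 24 h.

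Of the lipid kinase genes, Atg14 was called in each comparison with NT cells. It encodes the subunit that brings the complex to autophagy initiation sites and lies at chr14:47540893-47570649 on the minus strand. At 24 h it had 11.2, 10.6 and 11.7 TPM in CP, 7.54, 7.05 and 7.46 in T and 10.4, 11.5 and 10.8 in TCP cells, against 4.90, 4.96 and 4.77 in NT cells. At 6 h the values were 4.44, 4.31 and 4.24 in CP, 4.87, 4.98 and 4.88 in T and 5.05, 5.34 and 6.64 in TCP cells, against 3.54, 3.50 and 3.12 in NT cells. Every treated library lay above every NT library of its time. The changes were 1.05 ± 0.07, 0.51 ± 0.07 and 1.02 ± 0.07 in CP, T and TCP cells at 24 h, and 0.28 ± 0.07, 0.43 ± 0.07 and 0.60 ± 0.07 at 6 h. Becn1, which encodes Beclin 1, ranged from 105 to 196 TPM over the 24 libraries and rose by 0.51 ± 0.066 in CP cells at 24 h. A mean of 15.1% of Becn1 TPM lay on protein-coding transcripts, 43.9% of its exon bases overlap Cntd1 on the opposite strand (0.407 to 1.48 TPM), and its called rise in TCP cells at 24 h (0.33) was 0.17 on coding transcripts alone (adjusted p = 0.538).

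Atg9b carried the largest change of the 37 genes. It encodes one of 2 ATG9 lipid scramblases of the membrane-carrying vesicles and lies at chr5:24384181-24392143 on the minus strand. CP cells at 24 h had 30.3, 28.4 and 30.1 TPM, T cells 0.693, 0.581 and 0.782 and TCP cells 3.91, 3.47 and 3.94, against 1.83, 1.98 and 1.71 in NT cells. At 6 h the TPM was 1.58, 1.97 and 2.08 in CP, 0.785, 1.01 and 0.831 in T and 1.77, 1.70 and 1.56 in TCP cells, against 0.672, 0.548 and 0.835 in NT cells. The 4 groups did not overlap at 24 h: CP libraries were far above the rest, TCP libraries next and T libraries lowest. The 24 h change was 3.43 ± 0.081 in CP cells (adjusted p = 1.39e-16), -0.75 ± 0.081 in T cells (adjusted p = 1.58e-07) and 0.75 ± 0.081 in TCP cells (adjusted p = 1.38e-07). At 6 h it was 0.77 ± 0.081 in CP and 0.67 ± 0.081 in TCP cells. The T level lies below 1 TPM, where the added 1 understates a fold. Atg9b shares 294 of its 3946 exon bases with Nos3 on the opposite strand, and Nos3 had 0.0305 to 0.0895 TPM in CP cells against 0.208 to 0.231 in NT cells at 24 h. The coding transcript Atg9b-201 took 51.8% of the gene's TPM in CP and 49.6% in NT cells at 24 h. The coding share there was 19.99% in T cells, whose level was below 1 TPM, and 40.9% in TCP cells.

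Its paralogue Atg9a, expressed at 14.4 to 33.0 TPM, rose by 0.38 ± 0.092, 0.42 ± 0.092 and 0.41 ± 0.092 in CP, T and TCP cells at 24 h, and by 0.82 ± 0.092 in T and 0.91 ± 0.092 in TCP cells at 6 h. The ATG2 genes, which encode lipid transfer proteins, moved apart. Atg2b was lower in T and TCP cells, at -0.64 ± 0.066 and -0.21 ± 0.066 at 24 h and -0.30 ± 0.066 and -0.32 ± 0.066 at 6 h, while Atg2a rose by 0.59 ± 0.11 in T and 0.41 ± 0.11 in TCP cells at 6 h and by 0.40 ± 0.11 in CP cells at 24 h. Wipi2, which encodes a lipid-binding protein that recruits the conjugation machinery, rose by 0.63 ± 0.048 in CP cells at 24 h and was lower in T cells, at -0.41 ± 0.048 at 24 h and -0.39 ± 0.048 at 6 h. Wipi1, of the same family, rose by 0.28 ± 0.056 in CP cells and changed by -0.23 ± 0.056 in TCP cells at 24 h.

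At 24 h, 1 of the 10 conjugation genes rose and 3 fell in CP cells. In T cells 4 rose and 2 fell, and in TCP cells 3 rose and 3 fell. Of all genes, 34.9% and 24.3% were called higher and lower in CP, 32.4% and 26.3% in T and 39.6% and 23.8% in TCP cells. Atg4c (chr4:99193934-99259787, plus strand) encodes one of 4 proteases that trim ATG8 proteins. At 24 h it had 4.49, 5.03 and 5.25 TPM in CP, 5.83, 6.03 and 6.23 in T and 3.98, 4.10 and 3.97 in TCP cells, against 9.94, 9.06 and 10.7 in NT cells. Its values at 6 h were 5.30, 5.46 and 5.25 in CP, 6.14, 7.09 and 7.49 in T and 5.78, 5.25 and 6.62 in TCP cells, against 6.01, 6.59 and 6.44 in NT cells. At 24 h all 9 treated libraries lay below all NT libraries, with TCP lowest. The changes at 24 h were -0.88 ± 0.077 in CP, -0.63 ± 0.077 in T and -1.12 ± 0.077 in TCP cells. The NT level itself was higher at 24 h than at 6 h, by 0.56 ± 0.077. The CP call at 6 h (-0.21, adjusted p = 0.0496) ended without any 1 of the 6 libraries compared (-0.25 to -0.19, adjusted p 0.0524 to 0.153).

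Atg16l2 (chr7:101263034-101302251, minus strand) is the paralogue of the scaffold gene Atg16l1. Its TPM at 24 h was 11.7, 13.2 and 17.9 in CP, 32.4, 31.1 and 31.6 in T and 26.6, 29.9 and 29.3 in TCP cells, against 12.1, 14.2 and 11.6 in NT cells. For 6 h the values were 17.2, 22.9 and 19.2 in CP, 23.3, 22.8 and 26.9 in T and 36.0, 30.8 and 40.8 in TCP cells, against 14.0, 12.7 and 10.6 in NT cells. All trametinib-treated libraries lay above NT at both times, and the 24 h CP libraries overlapped NT. The change was 1.26 ± 0.14 in T and 1.12 ± 0.14 in TCP cells at 24 h, and 0.63 ± 0.14, 0.92 ± 0.14 and 1.45 ± 0.14 in CP, T and TCP cells at 6 h. A mean of 25.6% of its TPM lay on coding transcripts. Atg16l1 changed the other way at 6 h, by -0.31 ± 0.053 in T and -0.18 ± 0.053 in TCP cells.

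Among the remaining conjugation genes, Atg12, which encodes the ubiquitin-like partner of ATG5, rose by 0.77 ± 0.048, 0.17 ± 0.048 and 0.55 ± 0.048 in CP, T and TCP cells at 24 h. Atg7, the E1-like activating enzyme, changed by -0.43 ± 0.10 in CP and -0.62 ± 0.10 in TCP cells at 24 h and by -0.84 ± 0.10 in CP and -0.55 ± 0.10 in TCP cells at 6 h. Atg4a rose by 0.24 ± 0.07 in T and 0.46 ± 0.07 in TCP cells at 24 h and by 0.59 ± 0.07 and 0.62 ± 0.07 at 6 h. Of the 31-base words of Atg4a, 60.8% also occur in other genes, and its copy Atg4a-ps had a mean of 0.005 TPM. Atg5, Atg4b and Atg3 each passed the test in 1 of the 6 comparisons, with sizes up to 0.23. The Atg4b call, lower in TCP cells at 24 h (-0.20), ended without TCP replicate 2 or 3 or NT replicate 1 or 2 (-0.21 to -0.13, adjusted p 0.0509 to 0.193).

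The ATG8 family, whose products coat the membrane, held the machinery genes with the highest median TPM, Gabarap (296) and Map1lc3b (195). Gabarap (chr11:69991143-69994951, plus strand) had 259, 289 and 269 TPM in CP, 425, 431 and 434 in T and 534, 531 and 496 in TCP cells at 24 h, against 215, 219 and 219 in NT cells. At 6 h it had 185, 202 and 189 TPM in CP, 324, 303 and 334 in T and 370.5, 377 and 388 in TCP cells, against 169, 182 and 178 in NT cells. The order NT, CP, T, TCP held from low to high at both times, without overlap between any 2 groups. The changes were 0.32 ± 0.048, 0.98 ± 0.048 and 1.254 ± 0.048 in CP, T and TCP cells at 24 h, and 0.86 ± 0.048 in T and 1.10 ± 0.048 in TCP cells at 6 h. TCP cells exceeded T cells by 0.27 ± 0.048 at 24 h, a difference that was 0.14 on coding transcripts alone (adjusted p = 0.094).

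Map1lc3a (chr2:155276297-155278073, plus strand), an LC3 gene, had 26.3, 22.7 and 29.7 TPM in CP, 21.0, 25.8 and 24.4 in T and 28.4, 28.9 and 29.5 in TCP cells at 24 h, against 11.6, 10.2 and 13.4 in NT cells. At 6 h the TPM was 7.97, 12.5 and 8.91 in CP, 16.2, 12.1 and 15.9 in T and 19.2, 21.5 and 20.6 in TCP cells, against 7.45, 6.83 and 7.38 in NT cells. At each time all treated libraries stood above all NT libraries, though the CP change at 6 h (0.37, adjusted p = 0.0514) missed the threshold. The 24 h changes were 1.10 ± 0.13, 0.96 ± 0.13 and 1.24 ± 0.13 in CP, T and TCP cells, and the 6 h changes were 0.92 ± 0.13 in T and 1.38 ± 0.13 in TCP cells. Almost none of this was on the coding transcript: its mean share was 2.68%, the rest being on 2 transcripts annotated as processed, and with coding transcripts alone the gene no longer passed the filter on low values.

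Map1lc3b, the LC3 gene used as the usual autophagy marker, ranged from 134 to 288 TPM and rose by 0.70 ± 0.063, 0.63 ± 0.063 and 0.88 ± 0.063 in CP, T and TCP cells at 24 h and by 0.38 ± 0.063 and 0.44 ± 0.063 in T and TCP cells at 6 h. Gabarapl1 went in opposite directions with the single treatments. It rose by 0.68 ± 0.045 in CP cells at 24 h and 0.45 ± 0.045 at 6 h, and changed by -0.24 ± 0.045 and -0.24 ± 0.045 in T cells. Its TCP changes lay between them, at 0.26 at 24 h and 0.18 at 6 h, and neither call held after median ratio rescaling. Gabarapl2 moved little, with 93.9 to 124 TPM over all 24 libraries.

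Cargo receptor genes rose with trametinib at 6 h. Optn (chr2:5020642-5064051, minus strand) encodes optineurin, a receptor for ubiquitin-marked mitochondria. Its TPM at 24 h was 6.59, 6.49 and 6.44 in CP, 5.85, 4.64 and 5.20 in T and 9.06, 10.3 and 8.18 in TCP cells, against 4.64, 4.005 and 4.70 in NT cells. The 6 h libraries had 1.77, 1.89 and 2.15 TPM in CP, 5.13, 4.43 and 5.55 in T and 7.25, 5.78 and 7.03 in TCP cells, against 2.12, 1.44 and 1.51 in NT cells. At 6 h T and TCP libraries stood well above NT and CP, and at 24 h TCP stood highest while T overlapped NT. The change was 1.17 ± 0.11 in T and 1.52 ± 0.11 in TCP cells at 6 h, and 0.46 ± 0.11 in CP and 0.90 ± 0.11 in TCP cells at 24 h.

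Sqstm1, which encodes p62, was the most abundant of the 37 genes by its median over the libraries, at 323 to 715 TPM. It rose by 0.26 ± 0.051 in T and 0.41 ± 0.051 in TCP cells at 6 h and changed by -0.21 ± 0.051 in CP and -0.33 ± 0.051 in T cells at 24 h. Of its exon bases, 17.3% overlap Mrnip on the opposite strand (4.05 to 18.9 TPM). Calcoco1, an endoplasmic reticulum autophagy receptor gene, rose by 0.87 ± 0.11 in T and 0.98 ± 0.11 in TCP cells at 6 h. At 24 h it was lower in CP than in NT cells (-0.47 ± 0.11). Its mean in CP cells was 10.9 TPM at 6 h and 25.6 at 24 h, and in NT cells 10.2 and 35.8. Nbr1 rose by 0.55 ± 0.076 in T and 0.67 ± 0.076 in TCP cells at 6 h and by 0.36 ± 0.076 in CP cells at 24 h. For Tax1bp1 the 6 h changes were 0.51 ± 0.054 in T, 0.31 ± 0.054 in TCP and -0.27 ± 0.054 in CP cells.

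All 4 mitophagy genes rose in T cells at 24 h and at 6 h, where 32.4% and 35.9% of all genes were called higher. The 24 h call for Pink1 was weak, as given below. In CP cells at 24 h, 2 of the 4 were lower than in NT cells, where 24.3% of all genes were. Bnip3 (chr7:138890836-138909519, minus strand) encodes a receptor of the outer mitochondrial membrane known as a target of hypoxia signalling. At 24 h it had 41.9, 42.7 and 37.2 TPM in CP, 142, 201 and 227 in T and 97.1, 101 and 80.8 in TCP cells, against 65.0, 69.9 and 59.5 in NT cells. The 6 h values were 39.9, 37.6 and 39.7 in CP, 124, 117 and 121 in T and 77.6, 82.3 and 92.5 in TCP cells, against 53.3, 47.6 and 48.8 in NT cells. The order CP, NT, TCP, T held from low to high at both times with no overlap. The change was -0.66 ± 0.12 in CP, 1.51 ± 0.12 in T and 0.51 ± 0.12 in TCP cells at 24 h, and 1.26 ± 0.12 in T and 0.74 ± 0.12 in TCP cells at 6 h. The CP call at 6 h (-0.34, adjusted p = 0.0454) ended without any 1 of the 6 libraries compared (-0.38 to -0.30, adjusted p 0.0677 to 0.141). Of the 31-base words of Bnip3, 19.0% also occur in other genes, and its copy Gm16439 moved with it at a lower level, with 13.7, 16.4 and 12.2 TPM in T cells against 3.81, 5.43 and 4.36 in NT cells at 24 h.

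Bnip3l (chr14:66985239-67008877, minus strand), which encodes the related receptor NIX, had 186, 153 and 168 TPM in CP, 342, 409.7 and 404 in T and 259, 264 and 256 in TCP cells at 24 h, against 154, 157 and 173 in NT cells. At 6 h it had 102, 90.7 and 96.5 TPM in CP, 199, 153 and 157 in T and 140.5, 147 and 186 in TCP cells, against 87.9, 91.8 and 93.5 in NT cells. CP libraries overlapped NT at both times, and all T and TCP libraries lay above NT. The changes were 1.248 ± 0.11 in T and 0.68 ± 0.11 in TCP cells at 24 h, and 0.88 ± 0.11 and 0.78 ± 0.11 at 6 h. A mean of 33.3% of its TPM was on coding transcripts, and these alone gave 147 ± 11.1 TPM in T cells for Bnip3l-201, against 46.9 ± 3.84 in NT cells at 24 h (SD, n = 3).

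Pink1 (chr4:138313409-138326307, minus strand) encodes the kinase that marks damaged mitochondria. It had 21.3, 20.5 and 19.99 TPM in CP, 24.6, 32.7 and 27.1 in T and 21.7, 28.8 and 30.2 in TCP cells at 24 h, against 20, 18.3 and 22.4 in NT cells. At 6 h the values were 8.62, 8.85 and 7.46 in CP, 18.8, 16.6 and 13.7 in T and 13.4, 17.8 and 21.3 in TCP cells, against 7.17, 6.79 and 8.83 in NT cells. At 6 h the T and TCP libraries were all above NT, at 1.01 ± 0.15 and 1.09 ± 0.15. The 24 h calls, 0.45 in T and 0.39 in TCP cells, were weak. The T call ended without NT replicate 2 or T replicate 2 (0.34 to 0.39, adjusted p 0.0663 to 0.0898). The TCP call ended without NT replicate 1 or 2 or TCP replicate 2 or 3 (0.30 to 0.38, adjusted p 0.0712 to 0.139). Fundc1, a further outer membrane receptor gene, rose by 0.36 ± 0.083 in T cells and changed by -0.35 ± 0.083 in CP cells at 24 h.

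**Figure D3:**
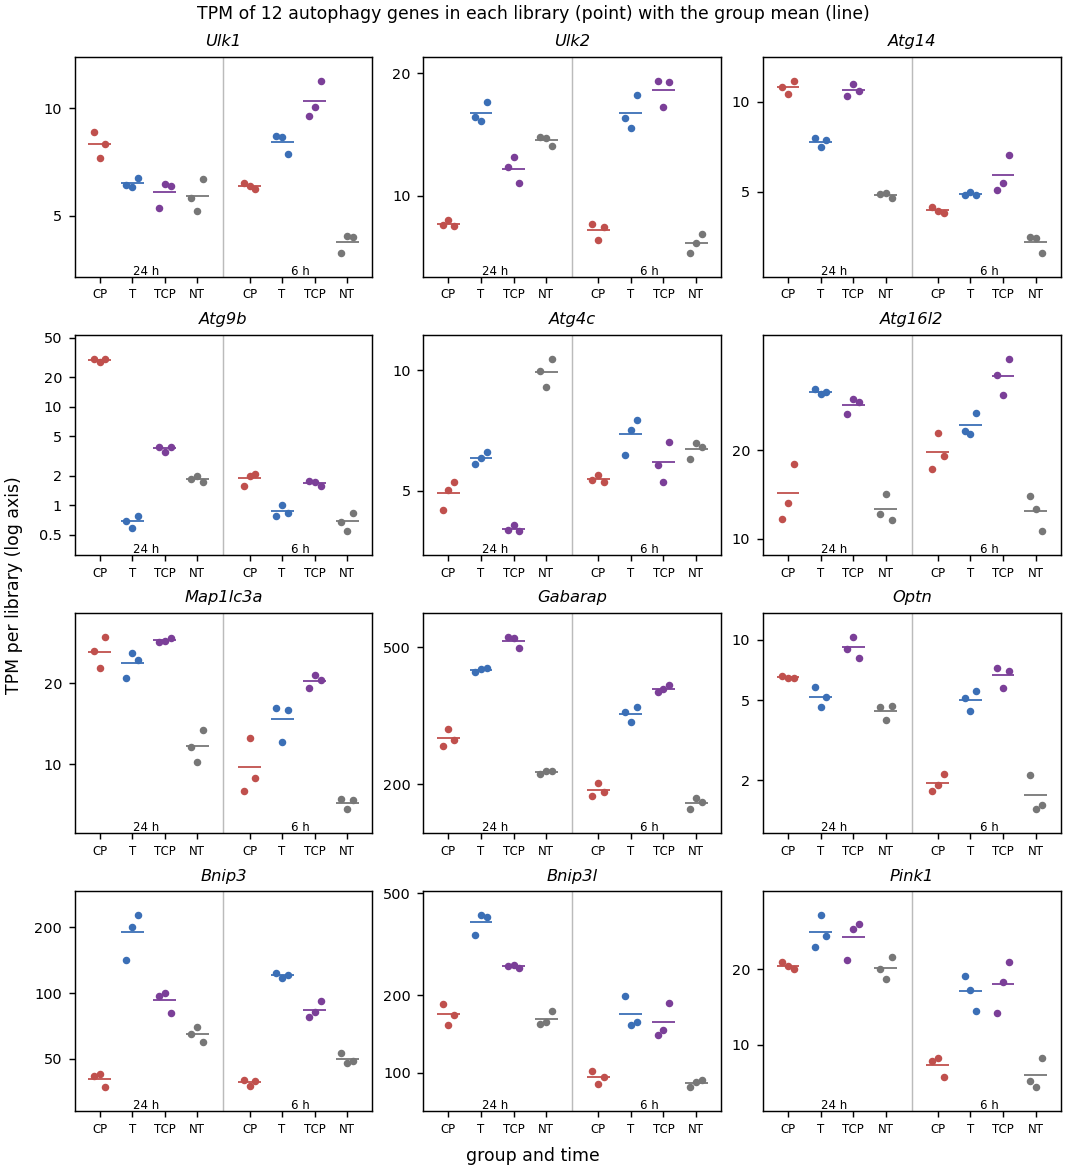
TPM of 12 members in each library (points, log axis) with group means (lines), for CP, T, TCP and NT cells at 24 h (left) and 6 h (right), 3 libraries a group. Atg9b stands at 28.4 to 30.3 TPM in the CP libraries at 24 h and at 3.94 TPM or below in all others, and Gabarap and Bnip3 keep the same order of groups at both times.

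Promoter sequence is shown for the gene with the largest change, Atg9b, and for Atg14 and Bnip3, whose windows hold CACGTG, the E-box letters bound by factors of the basic helix-loop-helix class. RefSeq windows of 300 bases (250 before the start to 50 after it, GRCm38.p6), each read 5′ to 3′ on the gene's own strand, were found for 31 of the 37 members. They are Atg9b at chr5:24392094-24392393, Atg14 at chr14:47568385-47568684 and Bnip3 at chr7:138909457-138909756, all on the minus strand. Capitals mark CACGTG.
Atg9b: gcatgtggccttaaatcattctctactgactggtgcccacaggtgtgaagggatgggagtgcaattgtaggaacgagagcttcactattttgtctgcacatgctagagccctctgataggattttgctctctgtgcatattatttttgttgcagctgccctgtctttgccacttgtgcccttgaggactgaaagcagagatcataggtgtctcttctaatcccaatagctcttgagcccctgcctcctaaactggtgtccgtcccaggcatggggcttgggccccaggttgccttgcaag
Atg14: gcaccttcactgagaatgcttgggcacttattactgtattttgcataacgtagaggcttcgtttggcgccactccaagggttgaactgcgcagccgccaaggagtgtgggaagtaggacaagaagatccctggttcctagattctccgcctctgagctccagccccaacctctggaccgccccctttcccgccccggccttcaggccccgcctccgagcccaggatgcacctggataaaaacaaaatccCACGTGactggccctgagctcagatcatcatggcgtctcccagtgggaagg
Bnip3: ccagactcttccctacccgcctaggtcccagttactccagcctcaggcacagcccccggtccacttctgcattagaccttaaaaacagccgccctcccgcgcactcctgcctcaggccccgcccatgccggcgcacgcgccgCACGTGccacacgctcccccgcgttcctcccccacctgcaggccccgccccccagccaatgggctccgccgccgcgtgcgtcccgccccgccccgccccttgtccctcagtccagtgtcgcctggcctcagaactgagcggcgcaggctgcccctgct
The motif starts 1 base before the RefSeq start of Atg14 and 108 bases before that of Bnip3, and CACGTG, searched on both strands, is absent from the Atg9b window. These starts are also those of the annotated transcripts Atg14-201, Bnip3-201 and Atg9b-201, and the other main Atg9b transcript, Atg9b-203, starts 1508 bases away. CACGTG was found in 5 of 35 member windows (Atg14, Atg3, Atg5, Atg7 and Bnip3), 14.3%, and in 7.15% of all 32851 windows. The shorter ACGTG, which each CACGTG contains, was found in 14 member windows, 40.0%, and in 19.6% of all windows. The forkhead letters GTAAACA and the p53 response element were found in no member window, beside 3.65% and 0.0731% of all windows.

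The combination was set against each of its parts. Against CP cells, TCP cells had 11 members higher and 9 lower at 24 h, where 30.3% and 23.2% of all genes were called, 53.5% in either direction, and after rescaling 9 higher and 11 lower. At 6 h 25 were higher and 4 lower, where 39.7% and 16.4% were, 56.0% in either direction, and rescaling moved the median of all genes there by 0.13. At 24 h Bnip3 stood 1.17 ± 0.12 above its CP level, Atg16l2 0.97 ± 0.14 and Gabarap 0.93 ± 0.048. Atg9b stood below it (-2.68 ± 0.081), as did Wipi2 (-0.70 ± 0.048) and Gabarapl1 (-0.42 ± 0.045). At 6 h the largest gains over CP were those of Optn, at 1.38 ± 0.11, Bnip3, at 1.08 ± 0.12, and Ulk2, at 1.06 ± 0.07.

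Against T cells, TCP cells had 15 members higher and 8 lower at 24 h, where 31.4% and 18.0% of all genes were called (49.3% in either direction), and after rescaling 11 higher and 10 lower. At 6 h 8 were higher and 3 lower, beside 12.3% and 6.53% (18.9% in either direction). At 24 h Atg9b (1.502 ± 0.081), Optn (0.71 ± 0.11), Atg14 (0.51 ± 0.07) and Gabarapl1 (0.50 ± 0.045) stood above T cells. Of the 4 mitophagy genes, 3 stood below T cells, Bnip3 at -1.005 ± 0.12, Bnip3l at -0.56 ± 0.11 and Fundc1 at -0.37 ± 0.083. At 6 h Bnip3 was also lower than in T cells, at -0.52 ± 0.12, as was Atg7, at -0.63 ± 0.10.

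The TCP change was also set against the sum of the CP and T changes on the log2 scale. At 24 h 12 members fell short of that sum and 4 exceeded it, where 15.6% and 16.2% of all genes did, 31.8% in either direction. The shortfall was -1.93 ± 0.12 for Atg9b, -0.82 ± 0.19 for Map1lc3a, -0.63 ± 0.15 for Bnip3l, -0.54 ± 0.10 for Atg14 and -0.49 ± 0.12 for Ulk1. Sqstm1 (0.50 ± 0.072), Atg2b (0.46 ± 0.094) and Atg4c (0.39 ± 0.11) exceeded it, each with both single changes below 0. At 6 h limma called 0 members, beside 0.0954% of all genes in either direction (0.0874% higher and 0.00795% lower), and 3 members had an unadjusted p under 0.05.

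The vehicle cells themselves moved with time, which bears on each comparison within a time. In NT cells 22 members were higher at 24 h than at 6 h and 5 lower, where 29.4% and 31.4% of all genes were called (60.8% in either direction), and the median change was 0.38 against -0.014. All 5 cargo receptor and all 4 mitophagy genes were higher at 24 h: Calcoco1 by 1.72 ± 0.11, Pink1 by 1.31 ± 0.15, Optn by 1.02 ± 0.11 and Sqstm1 by 0.95 ± 0.051. Of these, the Bnip3 call (0.37) ended without NT replicate 2 at 24 h (0.31, adjusted p = 0.0605). Wipi1 was higher by 1.18 ± 0.056. Those lower at 24 h included Atg4d (-0.54 ± 0.12), whose exons overlap Kri1 on the opposite strand over 23.6% of their bases (30.4 to 54.6 TPM), and Atg101 (-0.45 ± 0.12). In T cells against NT cells, 18 members had a smaller or more negative change at 24 h than at 6 h and 2 a larger one, where 22.3% and 15.9% of all genes did (38.2% in either direction). After rescaling these counts were 14 and 4. In CP cells 14 members had a higher effect at 24 h and 4 a lower one, where 28.3% and 16.7% of all genes did (45.1% in either direction), and after rescaling 9 and 7. In TCP cells 5 were higher and 12 lower, where 25.3% and 24.3% of all genes were (49.7% in either direction). All 5 cargo receptor genes were among the 18 in T cells, with Optn at -0.98 ± 0.15, a difference that sets a higher NT level at 24 h against a T level of 5.23 ± 0.603 TPM at 24 h and 5.04 ± 0.567 TPM at 6 h (SD, n = 3).

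Gene length went with the early chemotherapy change. Among all genes tested, 733 of the 1390 that span over 100000 bases were lower in CP cells at 6 h (52.7%), against 960 of the 11191 shorter ones (8.58%). Members over that length are Atg7 and Atg4a, and Atg7, which spans 217518 bases, had the lowest CP change at 6 h of the 37. Atg4a, which spans 207364 bases, was not called there, with a mean of 8.35 TPM in CP and 8.91 in NT cells. Among the other 49 genes of the pathway tested, 6 of the 7 over that length were lower, against 3 of the 42 shorter ones. The length cut was chosen after the values were seen. Over the 37 members Spearman's rho between length and CP change at 6 h was -0.49, and over all genes -0.40, as a description across genes, which share libraries.

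**Figure D4:**
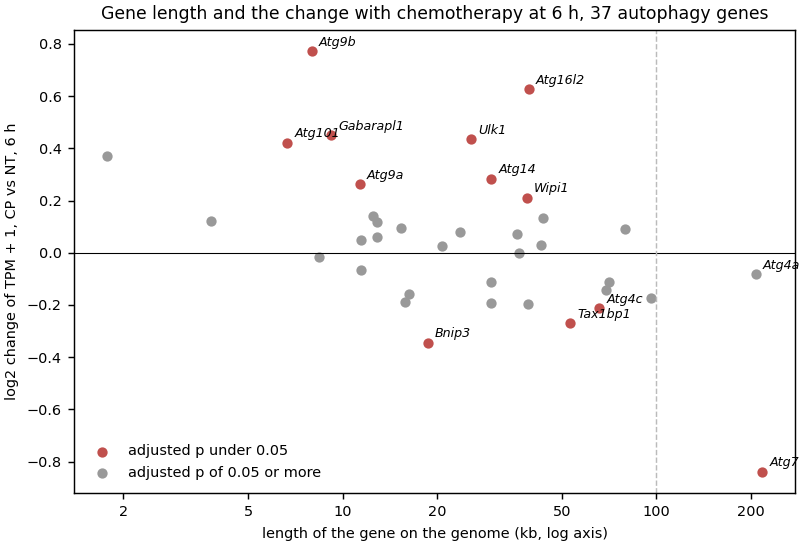
Length of the 37 genes on the genome (kb, log axis) and their log2 change of TPM + 1 in CP against NT cells at 6 h (n = 3 libraries a group), with called genes in red and the 100 kb mark dashed. Atg7, the longest, lies lowest at -0.84, and the genes that rose by over 0.4 are all under 40 kb.

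Several genes were read mainly from transcripts that the annotation does not call protein-coding. The coding share averaged under 50% for Rb1cc1 (49.2%), Atg9b (41.4%), Bnip3l (33.3%), Atg16l2 (25.6%), Gabarapl2 (21.1%), Becn1 (15.1%) and Map1lc3a (2.68%). Read assignment among overlapping transcripts is an estimate, so that these shares are descriptions. Wipi2 changed its transcript mix along with its level: the shorter coding transcript Wipi2-202 held 59.5% ± 1.93 of Wipi2 TPM in CP, 24.0% ± 1.30 in T and 44.0% ± 3.12 in TCP cells, against 34.4% ± 1.97 in NT cells at 24 h (SD, n = 3). Wipi2-201, the longer one, stood at 22.5 ± 1.135 TPM in CP, 20.03 ± 1.32 in T and 19.8 ± 0.794 in TCP cells, against 22.8 ± 1.03 in NT cells.

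**Figure D5:**
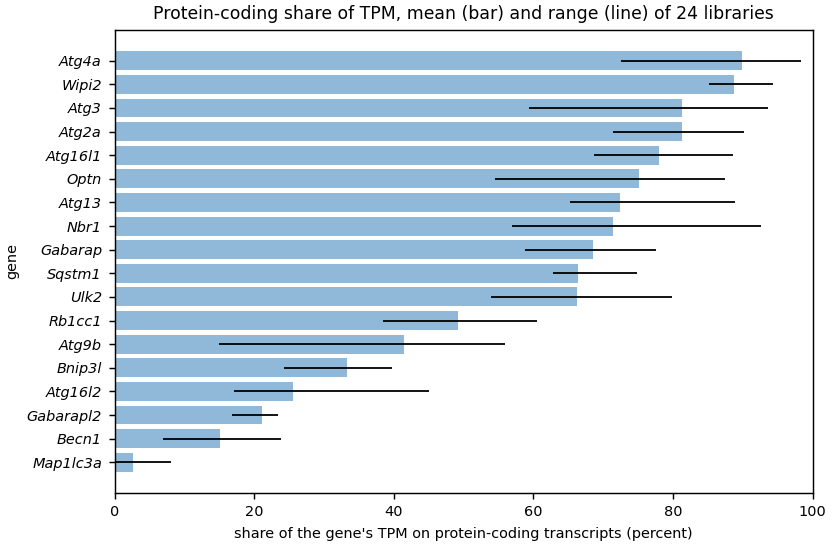
Share of a gene's TPM on transcripts annotated as protein-coding (percent, bars: mean of 24 libraries, lines: range) for the 18 of the 37 members whose mean is under 90%. Map1lc3a, Becn1 and Gabarapl2 lie lowest, at 2.68%, 15.1% and 21.1%.

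Other genes of the pathway, taken by role, are given for 24 h, where 34.9% and 24.3% of all genes were called higher and lower in CP, 32.4% and 26.3% in T and 39.6% and 23.8% in TCP cells. Of 12 genes of later steps and membrane supply, 9 rose and 1 fell in CP cells, 7 rose and 3 fell in T cells and 8 rose and 2 fell in TCP cells at 24 h. Vamp8, a fusion protein of the autophagosome and lysosome, rose by 0.46 ± 0.064, 0.996 ± 0.064 and 0.92 ± 0.064, and Tmem41b, a membrane scramblase gene, by 0.54 ± 0.076, 0.78 ± 0.076 and 0.87 ± 0.076. Of 6 further partners of the lipid kinase, 2 rose and 1 fell in CP cells at 24 h, while 4 rose and 0 fell in T and in TCP cells; Nrbf2, an ATG14 partner, rose by 0.28 ± 0.046, 0.55 ± 0.046 and 0.69 ± 0.046. Of 12 further receptor and mitophagy genes tested, 8 rose and 0 fell in T and in TCP cells, and 4 rose and 1 fell in CP cells at 24 h. Tex264 and Sec62, receptor genes for the endoplasmic reticulum, rose by 0.91 ± 0.093 and 0.81 ± 0.058 in T and 0.85 ± 0.093 and 0.75 ± 0.058 in TCP cells.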

How the data were processed

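The libraries were made with a stranded kit from poly(A) RNA, per the labels' protocols. The authors deposited 1 table of TPM per transcript, 82934 transcripts by 24 libraries, made with bcl2fastq 2.17.1.14 and kallisto 0.45 on GRCm38, per the submitters' processing notes. The sources used here do not say whether strand entered the counting. TPM keeps no read depth, so no counting interval or floor is given. Transcripts were summed to genes with GENCODE M21: 79662 matched, giving 28328 genes, and 3272 did not (4.45% to 5.98% of a library's TPM). Genes at 1 TPM or above in at least 3 libraries were kept, 12581 in all. Log2(TPM + 1) was fitted over all 24 libraries with 8 group means in limma 3.58.1 (R 4.3.3) with a mean-variance trend, and p-values were adjusted by Benjamini-Hochberg over all genes in each of 16 comparisons. The study's design states a Bonferroni threshold of 0.10, for a test that needs counts, and that threshold was tried here as an alternative. The fit was tested on simulated data. Within groups, libraries correlated at 0.982 to 0.994 and no 2 libraries held identical values. The rule for the members goes by name and uses no measured value, but members and lists were chosen with earlier results of these data known. Values per library are given for the 12 members with the largest called change over the 6 comparisons with NT cells, which leave no role without a member; others are given by range, count or change, and of the other pathway genes those named are among the 4 of each list with the smallest p in TCP against NT cells.
Alternatives were another pseudocount (0.1), no filter, a mean of 5 TPM or above, median ratio rescaling, a fit of the compared groups alone, a replicate block, the Bonferroni threshold, each library left out and, added after seeing the data, protein-coding transcripts alone. Sequence words of 31 bases were matched between genes' transcripts, and exon overlaps were taken from the annotation. Promoters come from RefSeq (GRCm38.p6). Protein sequences were not used here.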

Additional observations from a re-analysis of the deposited data

Results flagged for a closer look

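For these results the effect of a treatment at 24 h differed from its effect at 6 h by the limma test of the difference itself (adjusted p under 0.05). Values are the effect at 24 h minus that at 6 h on the log2(TPM + 1) scale, each effect being the treated cells minus NT cells of the same time, with n = 3 libraries a group. Because NT cells also changed with time, a difference can rest on either.

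For CP cells, 14 members were higher and 4 lower. Higher were Atg9b at 2.66, Atg14 at 0.77, Map1lc3a at 0.73, Atg12 at 0.73, Map1lc3b at 0.71 and Becn1 at 0.67. So were Wipi2 at 0.59, Nbr1 at 0.55, Tax1bp1 at 0.43, Atg7 at 0.41, Atg13 at 0.26, Atg5 at 0.26, Gabarapl1 at 0.23 and Gabarap at 0.20. Lower were Ulk2 at -0.71, Atg4c at -0.66, Calcoco1 at -0.56 and Atg16l2 at -0.48. Atg13 lost its call without CP 24 h replicate 1 or 3, NT 24 h replicate 1 or 3, CP 6 h replicate 1 or NT 6 h replicate 1 or 2 (0.18 to 0.26, adjusted p 0.0553 to 0.105). Atg5 lost it without CP 24 h replicate 2, NT 24 h replicate 1 or CP 6 h replicate 2 (0.22 to 0.24, adjusted p 0.0563 to 0.0673). Atg7 lost it without CP 24 h replicate 1, NT 24 h replicate 3, CP 6 h replicate 2 or 3 or NT 6 h replicate 1 or 2 (0.32 to 0.38, adjusted p 0.0627 to 0.0922). For Atg16l2 this held without CP 24 h replicate 1 or 2, NT 24 h replicate 1 or 2, CP 6 h replicate 2 or 3 or NT 6 h replicate 2 or 3 (-0.51 to -0.36, adjusted p 0.058 to 0.141). For Gabarap it held without CP 24 h replicate 2, CP 6 h replicate 1 or NT 6 h replicate 2 (0.16 to 0.18, adjusted p 0.0511 to 0.0632). After rescaling 5 of these were no longer called: Gabarapl1 at 0.13 (adjusted p = 0.204), Gabarap at 0.11 (0.308), Atg13 at 0.17 (0.196), Atg5 at 0.17 (0.0761) and Atg7 at 0.33 (0.0534).

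For T cells, 2 members were higher, Map1lc3b at 0.25 and Atg16l1 at 0.20. Lower initiation and lipid kinase genes were Ulk2 at -0.76, Ulk1 at -0.69, Atg13 at -0.33 and Becn1 at -0.27. The 5 membrane genes lower were Atg9b at -0.91, Atg2a at -0.42, Wipi1 at -0.42, Atg9a at -0.41 and Atg2b at -0.34. The conjugation genes lower were Atg4c at -0.73, Atg4d at -0.51 and Atg4a at -0.35. All 5 cargo receptor genes were lower, Optn at -0.98, Sqstm1 at -0.59, Calcoco1 at -0.58, Tax1bp1 at -0.43 and Nbr1 at -0.38. Pink1 stood at -0.56 and lost its call without T 24 h replicate 1 or 3, NT 24 h replicate 1 or 3, T 6 h replicate 1 or 2 or NT 6 h replicate 1 or 2 (-0.56 to -0.46, adjusted p 0.0729 to 0.125). Becn1 lost its call without T 24 h replicate 2, NT 24 h replicate 1, T 6 h replicate 3 or NT 6 h replicate 1 or 3 (-0.27 to -0.19, adjusted p 0.0512 to 0.101). Atg2a lost it without T 24 h replicate 1 or 3, NT 24 h replicate 1 or 3, T 6 h replicate 1, 2 or 3 or NT 6 h replicate 1 or 2 (-0.44 to -0.33, adjusted p 0.0502 to 0.115). Atg9a lost it without NT 24 h replicate 3 or T 6 h replicate 1 (-0.36 to -0.35, adjusted p 0.0515 to 0.0531). For Atg4d this held without T 24 h replicate 3, NT 24 h replicate 3, T 6 h replicate 1 or NT 6 h replicate 1 (-0.46 to -0.40, adjusted p 0.0516 to 0.0694). For Atg16l1 it held without T 24 h replicate 1 or 3, NT 24 h replicate 3, T 6 h replicate 1 or 2 or NT 6 h replicate 2 or 3 (0.17 to 0.21, adjusted p 0.0512 to 0.105). For Map1lc3b it held without T 24 h replicate 2, NT 24 h replicate 1 or 2, T 6 h replicate 2 or NT 6 h replicate 1 or 3 (0.22 to 0.25, adjusted p 0.0529 to 0.0713). After rescaling 4 were no longer called: Atg13 at -0.27 (adjusted p = 0.0503), Becn1 at -0.21 (0.0614), Atg2a at -0.37 (0.0589) and Pink1 at -0.50 (0.0716).

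For TCP cells, 5 members were higher and 12 lower. Higher were Map1lc3b at 0.44, Atg14 at 0.42, Atg12 at 0.39, Wipi2 at 0.24 and Becn1 at 0.24. Lower were Ulk2 at -1.37, Calcoco1 at -1.20, Ulk1 at -1.11, Atg4c at -1.02, Pink1 at -0.70 and Wipi1 at -0.65. So were Optn at -0.62, Atg9a at -0.49, Nbr1 at -0.48, Sqstm1 at -0.45, Atg13 at -0.35 and Fundc1 at -0.34. Becn1 lost its call without TCP 24 h replicate 1, 2 or 3, NT 24 h replicate 2 or 3, TCP 6 h replicate 2 or 3 or NT 6 h replicate 1, 2 or 3 (0.19 to 0.25, adjusted p 0.0505 to 0.111). Fundc1 lost it without NT 24 h replicate 2, TCP 6 h replicate 1 or NT 6 h replicate 1 or 3 (-0.31 to -0.28, adjusted p 0.0504 to 0.0614).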

How the results depend on the processing

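Of 331 calls for members over 16 comparisons, the Bonferroni threshold of 0.10 ended 180, leaving out some 1 library 53, median ratio rescaling 34, a fit of the compared groups alone 24, no filter 17, the replicate block 8, another pseudocount 1 and a mean of 5 TPM or above 1. Rescaling ended 1 more call with its sign turned. Protein-coding transcripts alone, an alternative chosen after seeing the data, ended 24 of the 321 calls it could refit, and 5 more with their sign turned. With the Bonferroni threshold the members called in either direction at 24 h were 11 in CP, 12 in T and 12 in TCP cells against NT cells, 8 in TCP against CP cells, 10 in TCP against T cells and 2 beyond the sum. At 6 h they were 3, 17 and 19 against NT cells and 2 in TCP against T cells. For the effect at 24 h minus that at 6 h they were 8 in CP, 5 in T and 6 in TCP cells, and for NT cells over time 16. TCP against T cells at 6 h gave 5 calls with the compared groups alone, against 11. Leaving out each library gave 26 to 27 calls in CP, 22 to 25 in T and 23 to 28 in TCP cells against NT cells at 24 h, and 8 to 12, 26 to 29 and 29 to 31 at 6 h. It gave 17 to 21 for TCP against CP cells, 21 to 24 for TCP against T cells and 13 to 17 beyond the sum at 24 h, and 27 to 29, 8 to 11 and 0 at 6 h. For the effect at 24 h minus that at 6 h it gave 15 to 17 in CP, 15 to 19 in T and 15 to 17 in TCP cells, and for NT cells over time 25 to 27. Shares of all genes were not computed under the Bonferroni threshold or with a library left out. These counts therefore show only how far the member counts move with the setting. Rescaling turned the sign of Atg3 (-0.11), Bcl2l13 (-0.12) and Tsc2 (-0.0041) in TCP against NT cells at 6 h, and of Atg3 (-0.014) and Tsc2 (-0.0020) in TCP against CP cells. Coding transcripts alone turned Atg3 (0.13), Atg16l1 (0.14) and Vmp1 (-0.29) in CP cells, Becn1 (0.10) in T cells and Ulk2 (0.082) in TCP cells against NT cells at 24 h, and Vmp1 (-0.092) in TCP against T cells. For the effect at 24 h minus that at 6 h they turned Pik3c3 (-0.15) in CP cells and Becn1 (-0.21), Vmp1 (-0.016) and Dram1 (0.32) in TCP cells, and over time in NT cells Becn1 (0.031), Rptor (0.013) and Dram1 (-0.11). The cause was not tested, except that fewer libraries or transcripts enter where some are left out. Same-numbered libraries of different groups, with both times pooled, did not deviate together as a set. Their correlations ran between -0.358 and 0.437 (median -0.035), over 0.1 in 23 of 84 pairs and in 47 of 168 pairs of unlike numbers. Pairs within a time were not taken apart, so whether the numbers pair the libraries of a time was not tested. The replicate block added 1 call beside the 8 it ended and moved no count of members by over 1.5 times. Depth cannot be read from TPM, so the precision of low genes such as Atg9b outside CP cells is known from the replicates alone.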

Other observations

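Regulators upstream of autophagy, 19 of 21 of them tested, included genes with large changes. Trp53inp1, a p53 target whose product binds ATG8 proteins, had 97.9, 98.4 and 91.0 TPM in CP, 17.4, 15.7 and 16.6 in T and 83.0, 84.8 and 86.0 in TCP cells at 24 h, against 21.3, 19.4 and 19.99 in NT cells. Its change was 2.19 ± 0.11 in CP and 2.01 ± 0.11 in TCP cells at 24 h, and 1.40 ± 0.11, 1.43 ± 0.11 and 2.89 ± 0.11 in CP, T and TCP cells at 6 h. Its relative Trp53inp2 rose by 1.46 ± 0.11 in T and 1.83 ± 0.11 in TCP cells at 24 h and by 2.05 ± 0.11 and 2.61 ± 0.11 at 6 h. Sesn1, whose product restrains mTORC1 signalling, rose by 1.19 ± 0.071 in T and 0.94 ± 0.071 in TCP cells at 24 h and by 1.31 ± 0.071 and 1.68 ± 0.071 at 6 h. Mitf, which encodes a transcription factor of lysosomal genes, was lower in T and TCP cells, at -1.83 ± 0.074 and -1.60 ± 0.074 at 24 h and -0.60 ± 0.074 and -0.77 ± 0.074 at 6 h. In all, 7 of the 19 rose and 3 fell in CP cells at 24 h (36.8% and 15.8%, beside 34.9% and 24.3% of all genes), 4 rose and 6 fell in T cells (21.1% and 31.6%, beside 32.4% and 26.3%) and 7 rose and 5 fell in TCP cells (36.8% and 26.3%, beside 39.6% and 23.8%).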
